A study of Mus musculus with 27 samples.

Results

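The genes described here are 10 genes of the yolk sac endoderm, taken by their symbols from a table of 24065 genes measured by RNA-Seq in whole mouse embryos at embryonic day 8.5 (E8.5). All 10 genes were found and all passed the filter on low values, a mean of 10 counts. The study compared 3 wild-type (WT) embryos with 3 Dnmt3b-/- littermate embryos of the C57BL/6J strain, with 1 library per embryo. The Dnmt3b-/- embryos were homozygous for an allele without catalytic activity, made by crossing Dnmt3b-2lox mice with an ACTB-Cre deleter line, which acts in the whole body, and mating the heterozygous offspring. Dnmt3b encodes a DNA methyltransferase that sets up methylation in the early embryo. Embryos were dissected whole, and the sources used here do not say how much of the yolk sac was left on them. The sex of the embryos is not given.

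The visceral endoderm is the outer epithelium of the visceral yolk sac, and it feeds the embryo before the liver and the placenta function. It secretes apolipoproteins and plasma carriers that the fetal liver later makes, and it takes up maternal proteins through the receptor complex of cubilin and amnionless. The 10 genes fall into 3 roles. Apob, Apoa1, Apoa4 and Apom encode apolipoproteins. Afp, Ttr, Rbp4 and Trf encode plasma carriers, and Cubn and Amn encode the paired uptake receptor. On the mm10 assembly, RefSeq places Apoa1 at chr9:46228630-46230469 (+ strand) and Apoa4 at chr9:46240844-46243458 (+ strand), both in the apolipoprotein cluster of that chromosome. The other apolipoprotein genes lie apart, Apob at chr12:7977629-8016839 (+ strand) and Apom at chr17:35128997-35131801 (- strand). The receptor genes are Cubn at chr2:13276338-13491876 (- strand), with 67 exonic blocks, and Amn at chr12:111271096-111276426 (+ strand), with 13. Of the carriers, RefSeq has Afp at chr5:90490714-90508907 (+ strand), Rbp4 at chr19:38116620-38125321 (- strand) and Trf at chr9:103208876-103230286 (- strand), and Ttr lies on chromosome 18. Counts were taken over the exons of each gene, untranslated parts included.

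The libraries held 41489332 to 58470286 counts on genes, so that 3 counts, the limit that a count of 0 allows, equal 2.37 to 3.49 normalized counts. Normalized counts were scaled to the mean library, and these limits cover counting error only. The targeted gene Dnmt3b stood at 7263, 13956 and 6280 normalized counts in WT embryos 1, 2 and 3 and at 4063, 4541 and 4740 in Dnmt3b-/- embryos 1, 2 and 3 (log2 fold change -1.04, SE 0.27, adjusted p = 0.0169 by edgeR's quasi-likelihood test). Every Dnmt3b-/- embryo was below every WT embryo, and the transcript was still counted, with reads from the exons outside the deletion included. WT embryo 2 stood apart in Dnmt3b and, as the next values show, in every yolk sac endoderm gene.

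The first 100 bases upstream of the start site show how different the promoters of these genes are in CpG dinucleotides, the sites that DNA methyltransferases modify. Promoters were given by RefSeq for 8 of the 10 genes on the mm10 assembly (GRCm38). The start site used for Apob was base 7977677 of chromosome 12, inside the gene as placed above from base 7977629. Part of the Apob window therefore lies within that gene span. The promoters of Afp, Apob, Cubn and Amn and the downstream promoter of Rbp4 are printed 5′ to 3′ on the strand of the gene, with CpGs in capitals, because they span the range from few to many CpGs and all 3 roles.
Afp, chr5:90490614-90490713, + strand: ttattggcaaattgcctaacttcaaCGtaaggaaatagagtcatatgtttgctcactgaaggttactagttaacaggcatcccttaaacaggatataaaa
Apob, chr12:7977577-7977676, + strand: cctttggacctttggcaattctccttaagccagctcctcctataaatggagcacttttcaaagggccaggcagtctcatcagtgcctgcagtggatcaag
Cubn, chr2:13491877-13491976, - strand: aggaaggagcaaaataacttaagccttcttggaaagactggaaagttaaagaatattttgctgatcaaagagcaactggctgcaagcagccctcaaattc
Amn, chr12:111270996-111271095, + strand: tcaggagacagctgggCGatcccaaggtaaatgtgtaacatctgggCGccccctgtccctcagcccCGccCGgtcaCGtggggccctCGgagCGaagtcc
Rbp4 downstream start site, chr19:38124812-38124911, - strand: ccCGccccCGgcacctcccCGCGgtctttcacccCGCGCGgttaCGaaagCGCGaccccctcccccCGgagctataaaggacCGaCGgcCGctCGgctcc
Within these 100 bases Apob and Cubn had 0 CpGs, Afp had 1, Amn had 7 and Rbp4 had 15. Over the 250 bases upstream, the 9 promoters of the 8 genes had a median of 5 CpGs, against 6 over all 32851 mouse promoters of the table. Afp and Apoa4 had the fewest, with 1 each, and the downstream start site of Rbp4 had the most, with 28. The TATA box letters TATAAA were found on either strand in the promoters of Afp and Apob, in the downstream promoter of Rbp4 and in 12.4% of all promoters. The letters GTTAAT, part of the HNF1 site, were found in Afp and in 6.43% of all promoters. CCAAT was found in Afp, Amn and the upstream promoter of Rbp4, which is not printed, and in 33.8% of all promoters. The FOXA letters TGTTTAC were found in the same upstream promoter of Rbp4 and in 3.17% of all promoters. The HNF4 letters CAAAGTCC and the GATA letters AGATAA, which are in 1.2% and 9.99% of all promoters, were in none of the 9 windows. No methylation was measured in these RNA libraries, and the methylation libraries of the series were not analysed here.

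The apolipoproteins coat lipid particles. Apob, the structural protein of the particles that carry lipid out of the yolk sac endoderm, had 27020, 87330 and 8085 normalized counts in WT embryos 1, 2 and 3 and 12580, 9840 and 3932 in Dnmt3b-/- embryos 1, 2 and 3. The genotypes overlapped, because WT embryo 3 lay below Dnmt3b-/- embryos 1 and 2. The log2 fold change of Apob was -2.22 (SE 0.77), which did not pass the threshold of 0.05 (adjusted p = 0.0527, edgeR). Apoa1, the main protein of high density lipoprotein, had 5055, 18637 and 2604 normalized counts in WT embryos and 7432, 4758 and 2225 in Dnmt3b-/- embryos. Here Dnmt3b-/- embryo 1 exceeded WT embryos 1 and 3, and the log2 fold change of -0.87 (SE 0.68) was far from the threshold (adjusted p = 0.355, edgeR). Apoa4, a lipoprotein component also made by the intestine, had 1779, 4579 and 637.7 normalized counts against 2025, 894.5 and 387.5. Its order of embryos was that of Apoa1, and it did not pass either (log2 fold change -1.08, SE 0.73, adjusted p = 0.282, edgeR). Apom, which carries sphingosine 1-phosphate, had 1210, 4270 and 626.2 normalized counts against 713.1, 487.4 and 88.11. It was the apolipoprotein closest to separate groups, since only Dnmt3b-/- embryo 1 reached above WT embryo 3 (log2 fold change -2.24, SE 0.82, adjusted p = 0.0643, edgeR).

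None of the 4 carrier genes passed the threshold, and their log2 fold changes lay between -0.92 and -1.32. Afp encodes alpha-fetoprotein, the major plasma protein of the fetus, and had 7728, 14102 and 2821 normalized counts in WT embryos against 7600, 3627 and 1776 in Dnmt3b-/- embryos (log2 fold change -0.92, SE 0.61, adjusted p = 0.275, edgeR). Embryo 1 of each genotype had nearly the same Afp level. Ttr, which carries thyroid hormone and binds the retinol-binding protein encoded by Rbp4, had 4205, 12419 and 2479 normalized counts against 4178, 2404 and 1062 (log2 fold change -1.32, SE 0.63, adjusted p = 0.136, edgeR). Rbp4 had 1793, 5579 and 1055 normalized counts against 2161, 1359 and 550.1 (log2 fold change -1.05, SE 0.64, adjusted p = 0.235, edgeR). For both genes the range of the Dnmt3b-/- embryos reached into that of the WT embryos. Trf, which encodes the iron carrier transferrin, had 2046, 5606 and 1132 normalized counts against 2386, 1225 and 744.4 (log2 fold change -1.01, SE 0.59, adjusted p = 0.217, edgeR). In Trf, as in Rbp4, Dnmt3b-/- embryo 1 was above WT embryos 1 and 3, and Dnmt3b-/- embryo 2 was above WT embryo 3.

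The receptor genes Cubn and Amn were both lower in the mean of the Dnmt3b-/- embryos. Cubn encodes cubilin, a large peripheral membrane protein that binds ligands, and had 8766, 34742 and 2635 normalized counts in WT embryos against 4784, 3416 and 1304 in Dnmt3b-/- embryos (log2 fold change -2.28, SE 0.84, adjusted p = 0.0649, edgeR). Dnmt3b-/- embryos 1 and 2 lay above WT embryo 3 in Cubn. Amn encodes amnionless, the membrane anchor of cubilin, and had 417.7, 1545 and 157.9 normalized counts against 220.7, 81.43 and 45.18. Amn fell in Dnmt3b-/- embryos (log2 fold change -2.59, SE 0.84, adjusted p = 0.0429, edgeR), a 6.04-fold lower level, although Dnmt3b-/- embryo 1 was above WT embryo 3. It passed in 2 of the 6 fits that leave out 1 embryo, and with a correction for GC content and length its adjusted p was 0.108 (edgeR, log2 fold change -2.03). The exons of Amn and Cubn share 233 and 369 bases with annotated genes on the opposite strand, and the strand setting of the counting is not given.

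**Figure D1:**
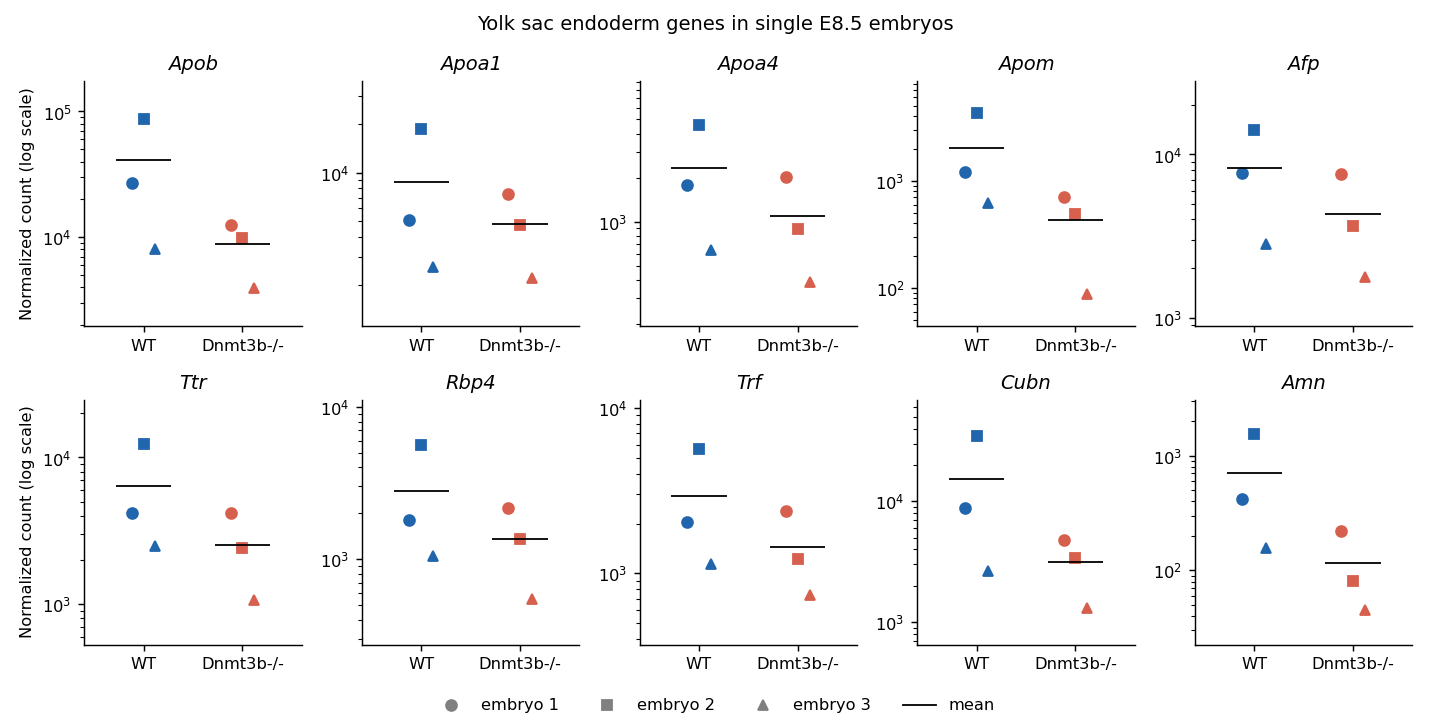
Normalized counts (log axis, each panel with its own range) of the 10 yolk sac endoderm genes in 3 WT embryos (blue) and 3 Dnmt3b-/- embryos (red), with the marker shape giving the embryo number and the line the mean. WT embryo 2 is the highest and Dnmt3b-/- embryo 3 the lowest point in all 10 panels, and the genotypes overlap in each.

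Across the 10 genes, 1 was called lower in edgeR (adjusted p below 0.05 with more than a 2-fold change), and 0 were called higher, whereas 3.78% of the 15114 tested genes were called lower and 2.12% higher. At the adjusted p alone 1 of 10 was lower, against 18.1% of tested genes, and 0 were higher, against 17.6%. In either direction the share was 1 of 10 against 35.7%. All 10 log2 fold changes were below 0 with a median of -1.20, against a median of -0.029 over all tested genes. An unadjusted p below 0.05 in edgeR was found for 4 of 10. Over all tested genes that share is at least the 35.7% that passed the adjusted p, so 4 of 10 does not set these genes apart. Without WT embryo 2 the median of the 10 genes was -0.34 and that of all genes -0.017, and 9 of the 10 log2 fold changes were below 0. In none of the 10 genes were the genotypes without overlap, while 51.8% of tested genes had no overlap. In bulk RNA from whole embryos, fewer endoderm cells and less RNA per endoderm cell cannot be told apart.

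The spread itself was shared by the genes. WT embryo 2 had the highest and Dnmt3b-/- embryo 3 the lowest value in 10 of 10 genes, and WT embryo 3 was the lowest WT embryo in 10 of 10. Of the 11870 genes that averaged 100 counts or more, 8.5% had both this highest and this lowest embryo. Among WT embryos the highest value was 4.95 to 13.2 times the lowest, with a median of 6.99, whereas the median over these 11870 genes was 1.17 and 1.23% of them reached 4.95. Among Dnmt3b-/- embryos the same ratio was 3.2 to 8.09 for the 10 genes, with a median of 3.93 against 1.2. Dnmt3b-/- embryo 1 exceeded WT embryo 3 in 10 genes and WT embryo 1 in 4. Across the 6 embryos the log2 levels of the 45 pairs of these genes had a median Pearson r of 0.955, from 0.856 for Apoa1 and Apom to 0.998 for Apob and Cubn, where all pairs share the same 6 libraries.

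Levels per length were compared as FPKM, fragments per kilobase of exon and scaled to library size. Apoa1 was the most abundant and Amn the least abundant of the 10 genes in each of the 6 embryos. Apoa1 had 184.8 ± 182.1 FPKM in WT and 101.3 ± 54.9 in Dnmt3b-/- embryos (SD, n = 3 each). Ttr at 100.7 ± 83.95 and Afp at 82.06 ± 56.49 FPKM in WT embryos followed (SD, n = 3), and took ranks 2 and 3 in either order. Amn, at the other end, had 7.866 ± 8.206 FPKM in WT and 1.288 ± 1.031 in Dnmt3b-/- embryos (SD, n = 3 each). The genes between Afp and Amn had WT means of 26.16 to 60.92 FPKM, and their spread between embryos was shared. Within each WT embryo Apob, Apom and Rbp4 held ranks 4 to 6 and Apoa4, Trf and Cubn ranks 7 to 9, in varying order inside each set. In the Dnmt3b-/- embryos Rbp4 held rank 4 and Cubn rank 9 in all 3, and the ranks of the other 4 genes varied. Summed over the 10 genes, the level was 413.7, 1255 and 193.0 FPKM in WT embryos 1, 2 and 3 and 429.5, 253.7 and 112.9 in Dnmt3b-/- embryos 1, 2 and 3. The ratio of the means was 0.428, and without WT embryo 2 it was 0.875, so 1 library carried most of the difference in the sum.

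**Figure D2:**
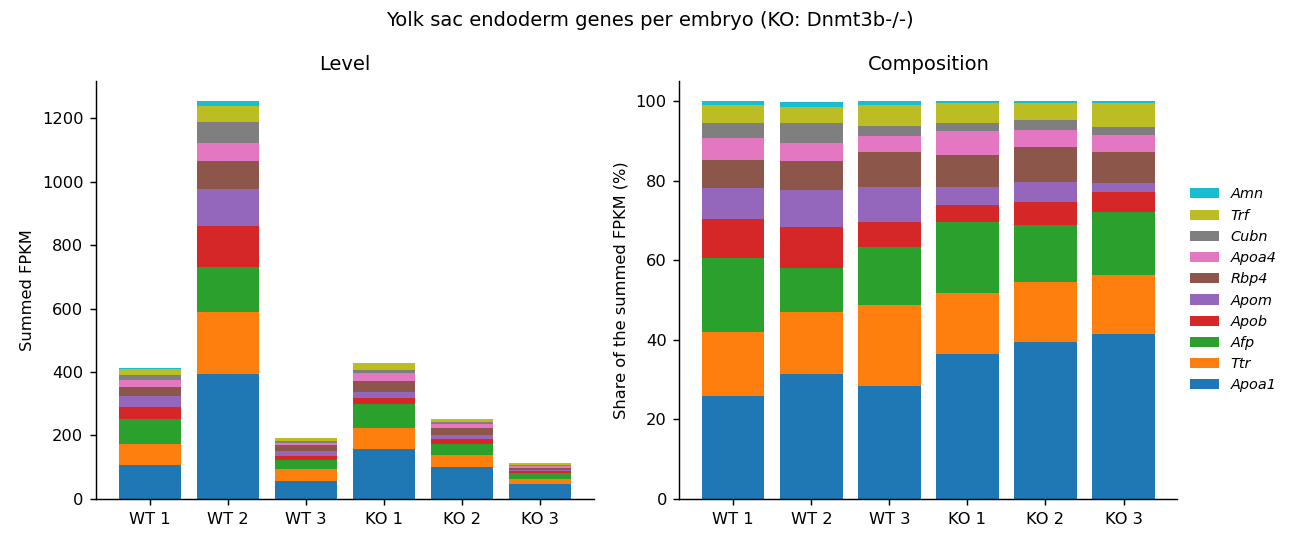
Summed FPKM of the 10 yolk sac endoderm genes in each embryo (left) and the share of each gene in that sum in percent (right), with colours for genes. WT embryo 2 reaches 1255 FPKM and Dnmt3b-/- embryo 3 stands at 112.9, and Apoa1 takes 25.8 to 31.3% of the sum in WT and 36.5 to 41.5% in Dnmt3b-/- embryos.

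Leaving out WT embryo 2 changed the comparison. None of the 10 genes then passed in edgeR, and Amn had a log2 fold change of -1.31 (SE 0.60, adjusted p = 0.127). The estimate for Apoa1 turned to 0.33 (SE 0.43), while those of Apom and Cubn were -1.09 and -0.85. Without WT embryo 3, in contrast, Apob, Apom, Cubn and Amn were all called lower, in a fit that called 3.64% of all tested genes lower. A further fit, chosen after seeing the data, took the mean log2 level of 10 other plasma protein genes in the embryo as a covariate. That mean, centred over the embryos, was 0.224, 1.629 and -0.785 in WT and 0.286, -0.41 and -0.944 in Dnmt3b-/- embryos 1, 2 and 3. With it, Amn (log2 fold change -1.24, SE 0.19, adjusted p = 0.0028), Apob (-0.75, SE 0.19, adjusted p = 0.0164), Cubn (-0.64, SE 0.17, adjusted p = 0.0221) and Apom (-1.11, SE 0.36, adjusted p = 0.0448) were lower in edgeR. The other 6 genes did not pass, with log2 fold changes of -0.40 for Ttr to 0.33 for Apoa1. In the same fit 16.1% of all tested genes were lower and 15.2% higher at this threshold, 31.3% in either direction. The covariate was itself highest in WT embryo 2 and lowest in Dnmt3b-/- embryo 3, as the 10 genes were. Its genes had a median log2 fold change of -0.85. The fit therefore describes levels relative to genes that share much of this embryo pattern, and its p-values are not separate evidence of a change.

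**Figure D3:**
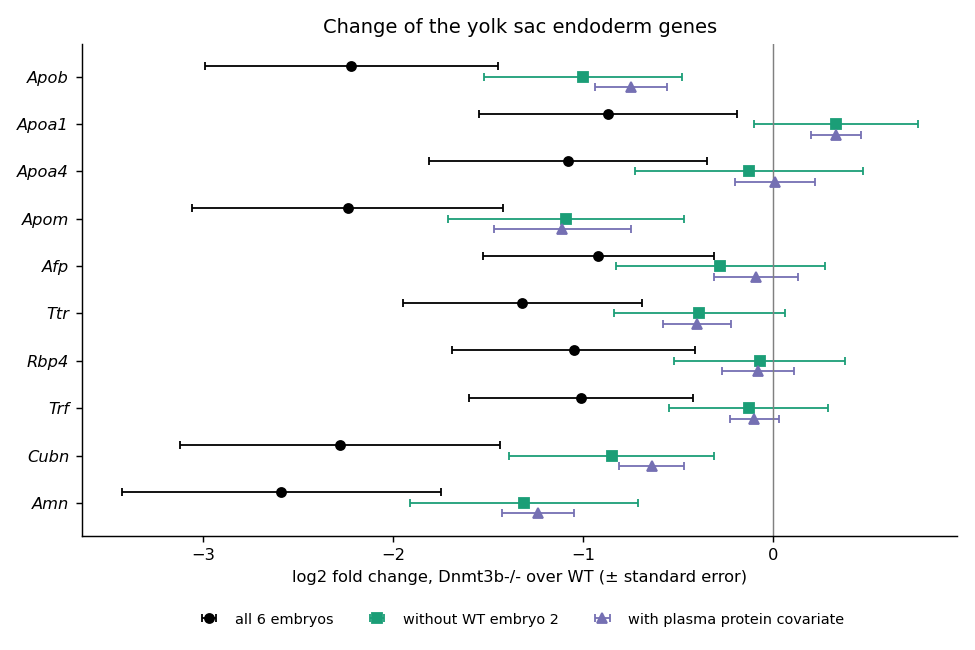
Log2 fold changes of Dnmt3b-/- over WT embryos with their standard errors for the 10 genes, from all 6 embryos (black circles), without WT embryo 2 (green squares) and with the plasma protein covariate (purple triangles). Amn lies at -2.59, -1.31 and -1.24 in the 3 fits, and Apoa1 lies at -0.87, 0.33 and 0.33.

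Levels of the genes relative to one another were described within each embryo. Each log2 level was set against the mean of the 10 genes in the same embryo and centred per gene, as a description with no test. Amn and Apom were relatively lower in all 3 Dnmt3b-/- embryos than in any WT embryo, with differences of -0.97 and -0.89 on the log2 scale. Relative Amn levels were 0.46, 0.73 and 0.27 in WT embryos against -0.21, -0.83 and -0.41 in Dnmt3b-/- embryos. Relative Apom levels were 0.29, 0.50 and 0.55 against -0.22, 0.04 and -1.16, with Dnmt3b-/- embryo 3 far below the other two. Apoa1, Rbp4 and Apoa4 were relatively higher in every Dnmt3b-/- embryo than in any WT embryo, with differences of 0.79, 0.44 and 0.38. For Rbp4 and Apoa4 the groups nearly touched. Rbp4 was at 0.07 in WT embryo 3 and 0.14 in Dnmt3b-/- embryo 1. Apoa4 was at -0.02 in WT embryo 1 and 0.05 in Dnmt3b-/- embryo 2. Thus 5 of 10 genes had no overlap relative to the mean of the 10. Of all tested genes 3.65% had none on this scale, on which a gene that does not share the embryo pattern of the 10 carries the full spread of their mean. Which genes had no overlap depended on the scale. As shares of the summed FPKM, Apoa1 was higher and Amn and Apom were lower without overlap, as on the log2 scale, but Rbp4 and Apoa4 overlapped. The shares of Apob, Cubn and Ttr were lower without overlap, and these 3 genes overlapped on the log2 scale. The shares of an embryo sum to a fixed total, so a higher share of 1 gene lowers the rest together. No value over all tested genes was computed for this scale, so whether such separation is unusual is not known. The share of Rbp4 was 6.96, 7.14 and 8.78% in WT and 8.08, 8.60 and 7.82% in Dnmt3b-/- embryos.

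**Figure D4:**
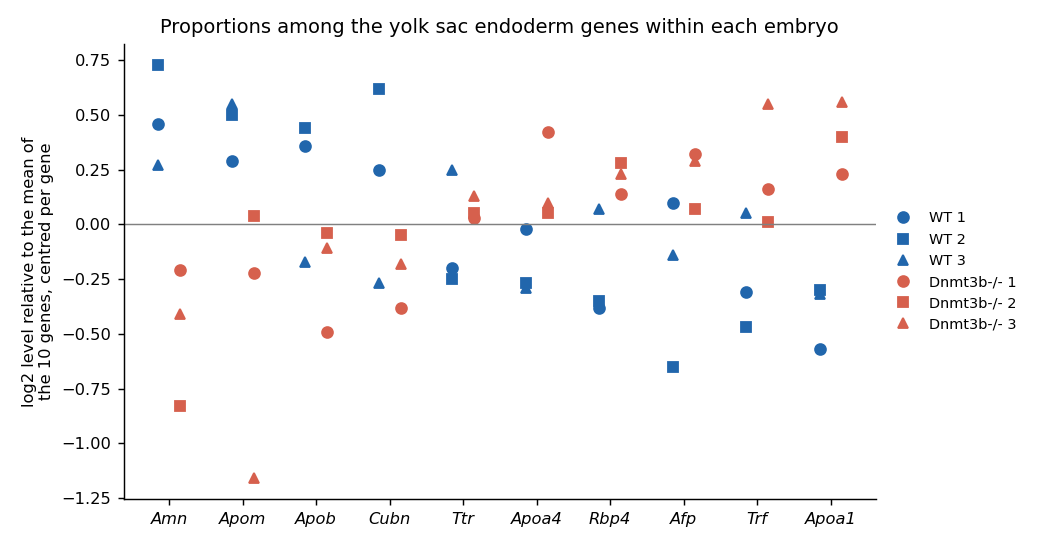
Log2 level of each gene relative to the mean of the 10 genes in the same embryo, centred per gene, for WT (blue) and Dnmt3b-/- (red) embryos, with genes ordered by the difference. Amn and Apom are lower and Apoa4, Rbp4 and Apoa1 higher in all Dnmt3b-/- embryos than in any WT embryo, and the other 5 genes overlap.

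Ratios between some of the genes varied far less than their levels. Of the 45 pairs, the ratio of Apob to Cubn in FPKM moved least, from 2.04 to 2.50 over the 6 embryos, while the summed level of the 10 genes moved 11.1-fold. The ratio of Ttr to Rbp4, whose proteins circulate bound to each other, moved the next least and was 2.31, 2.19 and 2.31 in WT and 1.90, 1.74 and 1.90 in Dnmt3b-/- embryos. This pair was 1 of 22 of the 45 whose ratio had no overlap between the genotypes, in either direction. The 45 ratios reuse 10 genes and the same 6 libraries, and the share over pairs of other genes was not computed. Whether 22 of 45 is unusual is therefore not known. Apom to Trf was the pair that moved most, from 1.80, 2.32 and 1.69 in WT to 0.912, 1.21 and 0.361 in Dnmt3b-/- embryos. Over all pairs the highest ratio was a median of 2.95 times the lowest.

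Most other genes of lipoprotein assembly and of plasma proteins were also highest in WT embryo 2, and none passed the test. Of 10 other genes of apolipoproteins and lipoprotein assembly, 9 were tested and 0 passed an adjusted p of 0.05 in edgeR, with a median log2 fold change of -1.10. Over all tested genes 35.7% passed in either direction. Apoe, the most abundant, had 9397, 32816 and 5866 normalized counts in WT and 9080, 6255 and 4677 in Dnmt3b-/- embryos (log2 fold change -1.26). Mttp, which loads lipid onto the Apob protein, had 2016, 7341 and 1193 against 1863, 1437 and 910.5 (log2 fold change -1.32). WT embryo 2 was the highest in 8 and Dnmt3b-/- embryo 3 the lowest in 6 of the 9 tested genes. Without WT embryo 2 the log2 fold changes of Apoe and Mttp were both -0.19. Of 12 other plasma protein genes 10 were tested and 0 passed, with a median of -0.85. Of the 10 tested, WT embryo 2 was the highest in 9 and Dnmt3b-/- embryo 3 the lowest in 5. Among them Fgb, a fibrinogen chain, had 907.4, 2716 and 414.5 against 1130, 707.2 and 395.4, with a log2 fold change of -0.85 that turned to 0.17 without WT embryo 2. Alb, the albumin gene of the liver, had 0.882 normalized counts at most, under the limit set by 3 counts.

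Of 10 other genes of uptake and endocytosis, 2 were lower at the adjusted p and 0 were higher. Over all tested genes 18.1% were lower and 17.6% higher, so 2 of 10 does not set this list apart. The median log2 fold change of the list was -0.45. Its most abundant gene, Tfrc, was lowest in WT embryo 2 (14659, 12711 and 13989 against 13638, 15807 and 15973, log2 fold change 0.13). Of the 2 lower genes 1, Lrp2, was called. Lrp2 encodes megalin, the receptor that works with cubilin, and had 9813, 20935 and 6147 normalized counts in WT against 4476, 4363 and 3451 in Dnmt3b-/- embryos (log2 fold change -1.59, SE 0.38, adjusted p = 0.0134, edgeR). Unlike Cubn and Amn, Lrp2 had no overlap between the genotypes, and it is also made by the neuroepithelium. Without WT embryo 2 its log2 fold change was -0.96 (adjusted p = 0.005, edgeR) and with the covariate -0.94, so it was no longer called at a 2-fold change. Slc46a1, a folate transporter named after its value was seen, was the other (log2 fold change -0.75, SE 0.16, adjusted p = 0.0085, edgeR). Dab2, the endocytic adaptor of these receptors, was 5176, 13404 and 3009 against 7443, 6653 and 5376 (log2 fold change -0.15). Its direction turned without WT embryo 2, to a higher level at 0.66 (adjusted p = 0.0417, edgeR), and with the covariate, at 0.69 (adjusted p = 0.0112). Of 12 endoderm transcription factor genes 0 passed, with a median of -0.26. Gata6 and Gata4, both expressed in heart as well, had log2 fold changes of 0.03 and -0.73, and Hnf4a, a regulator of apolipoprotein genes, had 754.2, 3197 and 335.2 against 931.8, 638.6 and 172.8 (log2 fold change -1.29, and 0.09 without WT embryo 2). In Hnf4a, too, WT embryo 2 was highest and Dnmt3b-/- embryo 3 lowest. Of the 12 genes, WT embryo 2 was highest in 7 and Dnmt3b-/- embryo 3 lowest in 6. Foxa2 went the other way and was highest in Dnmt3b-/- embryo 3. It had 532.3, 812.5 and 471.0 normalized counts in WT against 684.1, 590.9 and 928.5 in Dnmt3b-/- embryos (log2 fold change 0.28).

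**Figure D5:**
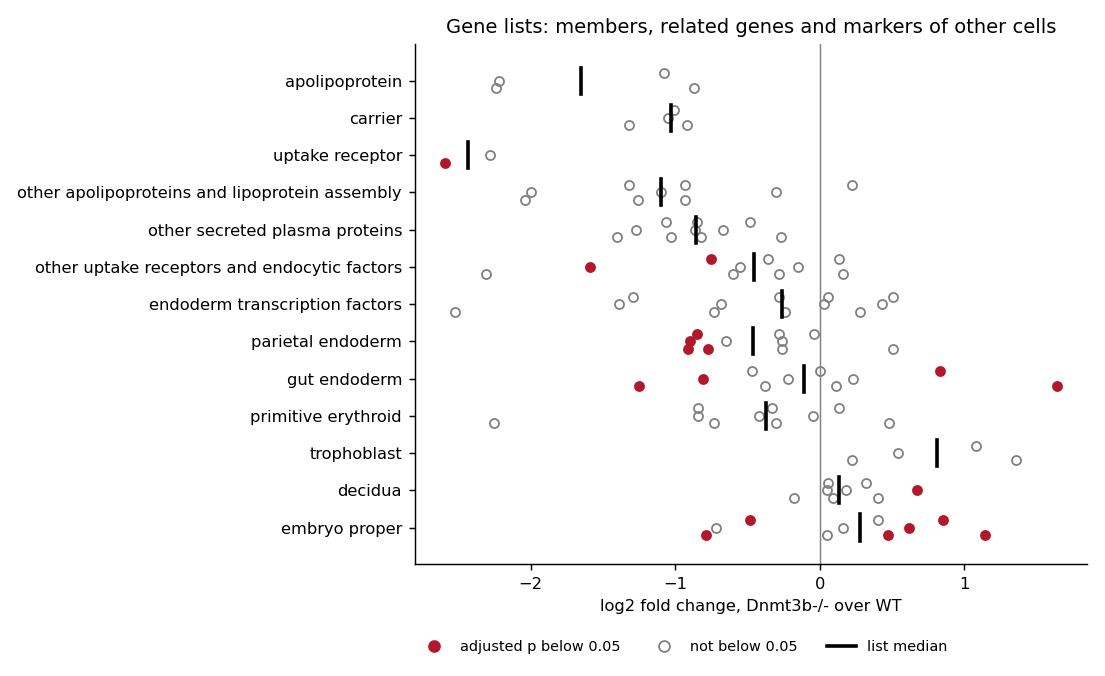
Log2 fold changes of Dnmt3b-/- over WT embryos for the 10 genes by role and for related and marker lists, with filled red points at an adjusted p below 0.05 in edgeR, open points otherwise and a black bar at the list median. The medians of the 3 roles are -1.65, -1.03 and -2.44, and trophoblast shows only its 4 tested genes.

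Markers of other cells that a dissected embryo can hold were set beside these results, with counts at the adjusted p alone. Over all tested genes 18.1% were lower and 17.6% higher at this threshold, 35.7% in either direction. Of 10 genes of the parietal endoderm, the other yolk sac endoderm, 4 were lower and 0 higher, namely Col4a1, Col4a2, Lama1 and Pth1r, with the last 2 named after their values were seen. Their summed level was 66752, 73526 and 57078 normalized counts in WT embryos 1, 2 and 3 and 52141, 44312 and 42811 in Dnmt3b-/- embryos 1, 2 and 3. Within each genotype this was the order of the summed FPKM of the 10 yolk sac endoderm genes. The basement membrane genes of the parietal endoderm list are also used by other tissues. Of 10 gut endoderm genes Pyy and Sfrp5 were lower and Shh and Nkx2-1 higher, all named after their values were seen. Without WT embryo 2, Pyy and Sfrp5 had adjusted p = 0.0551 and 0.0619 (edgeR). The summed level of the gut endoderm genes was 11695, 14991 and 9715 in WT embryos 1, 2 and 3 against 10707, 10833 and 12815 in Dnmt3b-/- embryos. Here, too, WT embryo 2 was highest, but Dnmt3b-/- embryo 3 was the highest of its genotype. The gut endoderm sum, in normalized counts, did not have a range as wide as the 11.1-fold range of the yolk sac endoderm genes in summed FPKM.

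Of 10 primitive erythroid genes, which are made by the yolk sac blood islands, 0 passed in either direction. Their sum was lowest in WT embryo 2 at 12292 and highest in WT embryo 3 at 69544 normalized counts, the reverse of the order of the yolk sac endoderm genes among WT embryos. Among Dnmt3b-/- embryos 1, 2 and 3 it was 44754, 34010 and 15759, the same order as the yolk sac endoderm genes. Of 10 trophoblast genes 4 were tested and 0 passed, with a median log2 fold change of 0.81. Tpbpa, Prl3d1, Prl2c2, Ctsq and Syna were at 0 in all 6 embryos. The 4 tested genes, Tfap2c, Plac1, Elf5 and Ascl2, were counted in every embryo. Plac1 had 169.8, 375.4 and 247.0 normalized counts in WT against 742.0, 186.1 and 214.6 in Dnmt3b-/- embryos. Elf5 had 33.17, 25.18 and 21.17 against 34.95, 59.32 and 74.55. Gcm1, not tested, had 13.42 at most. Of 10 decidua genes only Hand2 passed, which was higher and is also a heart and limb gene, and the decidual prolactin genes Prl8a2 and Prl3c1 were at 0 in all embryos. Over all tested genes 18.1% were lower and 17.6% higher at the adjusted p. Of 10 genes of the embryo proper Sox2 and Nkx2-5 were lower and Pax6, Tcf15, Tnnt2 and Hoxb1 higher. Of these 6, Nkx2-5, Tcf15 and Hoxb1 were named after their values were seen. The summed level of the 10 genes of the embryo proper was 18680 in WT embryo 2, the lowest of all 6, and 21478 to 26238 in Dnmt3b-/- embryos. The part of these differences in other cells in the results for the 10 genes was not tested.

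The genes most like the mean of the 10 across the 6 embryos were Trpm6, Car7, Mcoln2, Fga, Eps8l2, Gcnt4, Abca3, Nostrin, Muc13 and Slc39a4, with Pearson r of 0.991 to 0.998. Likeness was measured on log2 normalized counts over 6 embryos that share their libraries, among 11860 other genes with a mean count of 100 or more, of which 2.39% had an r above 0.9. Trpm6, a magnesium channel, had 151.6, 396.0 and 82.91 normalized counts in WT and 142.8, 97.71 and 47.44 in Dnmt3b-/- embryos. Car7, a carbonic anhydrase, had 785.0, 2845 and 335.2 against 817.9, 395.5 and 145.7. Slc39a4, a zinc importer, had 338.0, 881.2 and 151.7 against 261.7, 200.1 and 63.26. None of these 10 genes passed an adjusted p of 0.05 in edgeR, and their median log2 fold change was -1.28. Of the 10, only Fga was in a list used above.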

How the data were processed

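RNA-Seq libraries of 3 WT and 3 Dnmt3b-/- whole E8.5 embryos were made from total RNA with Ribo-Zero Gold depletion and the TruSeq Stranded kit. Per the methods and the submitters' processing notes, the authors used TopHat2 2.0.12 to align read pairs to mm10 and HTSeq 0.6.0 for counts over the exons of RefSeq genes. The raw counts deposited by the authors were the values analysed. The deposited normalized signal, which the authors made by dividing counts by size factors of DESeq2 1.4.5, was not used, and neither were the authors' log2 fold changes or the authors' adjusted p-values of the same comparison. Neither the strand setting nor the RefSeq release is given in the sources used here.

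Counts were normalized by TMM and tested by quasi-likelihood in edgeR 4.0.16 (R 4.3.3) over 15114 genes that averaged 10 counts or more, with Benjamini-Hochberg adjustment over all of them. A call needed an adjusted p under 0.05 and more than a 2-fold change. Embryos were littermates by the methods, but which share a litter is not given. FPKM was computed from the counts, TMM library sizes and RefSeq exon lengths of GRCm38, where 99.3% of genes were matched. Log2 levels used a pseudocount of 1. Tables and figures were made with Python 3.11.15. The main kinds of fit, but not the covariate fit or those leaving out an embryo, were tested on simulated counts. There all genes had the same scatter beyond counting error and no library stood apart. That test does not cover the spread between embryos seen in the 10 genes.

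The 10 genes and all lists were chosen with earlier results of these data known. Named were all 10 genes, Dnmt3b, up to 4 most abundant genes of each list and the 10 genes most like the mean of the 10. Others are marked as named after their values were seen. Alternatives were other filters and scalings, DESeq2 1.42.0, limma 3.58.1, a replicate block, a GC and length correction and each embryo left out in turn. A covariate was added after seeing the data.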

Additional observations from a re-analysis of the deposited data

How the results depend on the processing

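With 3 embryos per genotype and 1 library that stands far above the rest, the number of the 10 genes called lower was unstable. It was 1 in the edgeR fit of the report, 4 without a filter on low counts, 2 with a mean of at least 50 counts, 2 in DESeq2, 0 in limma, 0 with the GC and length correction, and 0 to 4 with each embryo left out. At the adjusted p alone the numbers were the same. With the covariate of plasma proteins, chosen after seeing the data, 2 were called and 4 passed the adjusted p alone, and the median log2 fold change of the 10 genes was -0.25. Of the other 44 genes of the related lists 1 was called lower in the fit of the report, 3 without a filter, 2 with at least 50 counts, 4 in DESeq2, 2 with the covariate and 0 to 10 with each embryo left out. The highest numbers came without WT embryo 3 and the 0 among the others without WT embryo 2 and without Dnmt3b-/- embryo 2 or 3. Over all genes 571 were called lower, 549 without WT embryo 3, 467 with the covariate and 145 with the GC and length correction. The log2 fold change of Apoa1 ran from -1.32 to 0.33 with each embryo left out, above 0 without WT embryo 2, and was 0.33 with the covariate, and that of Apoa4 was 0.01 with the covariate. The other 8 genes stayed below 0 in all 16 alternatives. The cause of these shifts was not tested.

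The titles give the same replicate numbers to both genotypes, and whether the numbers pair the embryos is not known. Deviations from the group means of same-numbered embryos correlated at -0.049, -0.147 and -0.013, and no label ties a number to a litter or day. With 3 embryos per genotype the deviations are tied to one another, so these values cannot decide whether same-numbered embryos share a litter. With the replicate number as a block, 4 of the 10 genes (Apob, Apom, Cubn and Amn) and 3 genes of the related lists were called lower, against 516 genes (3.41%) over all tested genes. The block together with the GC and length correction gave 2 of the 10 genes and 2 of the related lists, and 120 of all genes.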
